A study of Homo sapiens with 2 samples.

Results

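Replication-dependent histone genes lie together in a few clusters of the human genome, and 27 of the 14471 ZFX peaks deposited for DAOY cells (0.187%) fell in 5 intervals drawn at these clusters. ZFX, a transcription factor with zinc fingers, takes its name from the X chromosome that encodes it. DAOY is an established line of cells from a human medulloblastoma, a tumour of the cerebellum. The study's 2 samples were both DAOY cells grown in high-glucose medium with serum, and the labels name no treatment or genotype change. They were chromatin precipitated with a rabbit polyclonal antibody against ZFX, and sheared chromatin that was not precipitated, the input. Only the peak list of the ZFX precipitation, 1 library, is used below, without the reads of the input and without a replicate. Whether the input served as control when the peaks were called is not known. Members were the peaks that overlapped an interval by at least 1 bp. On chromosome 6 the intervals ran from 26015000 to 26290000, from 27090000 to 27120000 and from 27770000 to 27870000 (cluster 1). On chromosome 1 they ran from 149780000 to 149865000 (cluster 2) and from 228605000 to 228655000 (cluster 3). The intervals are given on hg19. The peaks were taken to be on hg19 too, the build named in the submitters' processing notes, and membership rests on position alone.

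Replication-dependent histone genes encode the linker histone H1 and the core histones H2A, H2B, H3 and H4, which package newly made DNA. They are transcribed mainly in S phase, mostly lack introns, and yield messages that end in a stem-loop in place of a poly(A) tail. Their short promoters commonly carry a TATA box and CCAAT boxes, and those of H2A and H2B genes an octamer, ATTTGCAT, bound by POU factors. ZFX is known to bind near the start sites of many genes, and AGGCCT is the centre of its known motif.

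By symbol, RefSeq (GRCh38.p14) lists 69 protein-coding genes of these classes on chromosomes 1 and 6. Of these, 6 encode H1, 17 H2A, 18 H2B, 14 H3 and 14 H4. On chromosome 6 there were 55 genes in 4 runs, where a run ends at more than 3 other coding genes. These were H2AC1 with H2BC1, 32 genes from H1-1 to H4C8, 5 genes from H2BC11 to H2AC12, and 16 genes from H2BC13 to H2BC17. Chromosome 1 had 11 genes from H2BC18 to H2AC21 and 3 genes from H3-4 to H2BC26. Runs can hold other coding genes, with 2 between H2BC18 and H3C13 and 1 between H1-2 and H4C3. In 11 places an H2A and an H2B gene were direct neighbours that pointed away from each other, such as H2BC8 with H2AC8 and H2AC7 with H2BC7. Peaks were taken to be on hg19, and genes are on GRCh38.p14. Positions were not compared between the builds, so no peak below is tied to a gene. Nor is it shown that the 5 intervals hold all genes of the 6 runs.

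The promoters of the clusters are shown to let a reader see what sequence lies in such intervals. RefSeq promoter sequences, from 250 bases before to 50 bases after the start, were matched for 64 of the 69 genes and gave 68 promoters, since some genes have more than 1 start. For 1 gene of each class, the 250 bases before the start are printed 5′ to 3′, with the motifs searched in capitals on either strand, which can overlap: the ZFX centre AGGCCT, the box CCAAT, the TATA box as TATAAA, and the octamer ATTTGCAT. H2AC8, H2BC5, H3C10 and H4C9 are the first genes of their class by number that hold AGGCCT, and H1-1 is the first H1 gene, a class in which none of 6 promoters held it.
H1-1, GRCh38.p14 chr6:26017788-26018037, minus strand: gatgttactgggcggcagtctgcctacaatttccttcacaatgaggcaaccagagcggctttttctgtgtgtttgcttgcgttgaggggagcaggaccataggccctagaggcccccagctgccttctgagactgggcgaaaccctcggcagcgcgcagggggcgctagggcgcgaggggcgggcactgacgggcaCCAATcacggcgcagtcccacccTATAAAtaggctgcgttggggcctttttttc
H2AC8, GRCh38.p14 chr6:26216671-26216920, plus strand: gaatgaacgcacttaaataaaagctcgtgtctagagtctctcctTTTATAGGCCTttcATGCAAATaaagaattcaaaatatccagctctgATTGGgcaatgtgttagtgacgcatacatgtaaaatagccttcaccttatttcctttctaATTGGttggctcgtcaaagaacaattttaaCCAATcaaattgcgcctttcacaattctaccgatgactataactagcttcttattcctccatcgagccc
H2BC5, GRCh38.p14 chr6:26157871-26158120, plus strand: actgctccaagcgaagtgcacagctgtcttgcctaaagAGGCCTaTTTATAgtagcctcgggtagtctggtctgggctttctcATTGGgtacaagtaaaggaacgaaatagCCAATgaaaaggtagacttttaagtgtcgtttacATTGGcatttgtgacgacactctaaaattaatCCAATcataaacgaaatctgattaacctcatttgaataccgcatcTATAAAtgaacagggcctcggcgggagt
H3C10, GRCh38.p14 chr6:27809801-27810050, plus strand: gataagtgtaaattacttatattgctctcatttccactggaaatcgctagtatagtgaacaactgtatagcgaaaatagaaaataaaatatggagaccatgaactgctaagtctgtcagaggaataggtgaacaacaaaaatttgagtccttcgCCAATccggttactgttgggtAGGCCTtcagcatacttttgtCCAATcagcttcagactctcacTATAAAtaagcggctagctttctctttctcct
H4C9, GRCh38.p14 chr6:27139032-27139281, plus strand: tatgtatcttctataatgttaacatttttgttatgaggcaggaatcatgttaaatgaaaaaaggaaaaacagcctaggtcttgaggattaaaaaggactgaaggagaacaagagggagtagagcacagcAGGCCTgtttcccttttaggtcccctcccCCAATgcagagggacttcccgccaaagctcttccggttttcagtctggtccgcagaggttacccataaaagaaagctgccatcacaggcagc

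The letters AGGCCT, which read the same on both strands, were found in 8 of the 68 histone promoters (11.8%, exact Clopper-Pearson 95% interval 5.22% to 21.9%). Among all 35116 promoters of the same length in the table they were found in 3826 (10.9%). The share in histone promoters was thus near that of all promoters. The 8 promoters belonged to 7 genes, H2BC5, H2BC8, H2AC8, H4C9, H2AC13, H3C10 and H4C11, and to 6 distinct places in the genome, because H2BC8 and H2AC8 share 1 of them between their starts. In the sequences printed above the match began 201 bases before the start of H2AC8, 212 before H2BC5, 75 before H3C10 and 121 before H4C9. The longer form AGGCCTAG was searched on both strands and was in 0 of 68 histone promoters (upper exact limit 5.28%) and in 349 of all promoters (0.994%).

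Other letters were more frequent in these promoters than in all promoters, with shares that differed by class. CCAAT, searched on both strands, was in 59 of 68 histone promoters (86.8%) against 34.6% of all promoters. It was in each of the 6 H1, 16 H2A, 20 H2B and 14 H3 promoters and in 3 of 12 H4 promoters. TATAAA on either strand was in 45 of 68 (66.2%) against 11.5%. The octamer ATTTGCAT on either strand was in 27 of 68 (39.7%) against 1.77%, of which 11 were H2A, 15 were H2B and 1 was H3, whereas none of the 6 H1 and 12 H4 promoters held it. A place between the H2A and H2B genes of the 11 pairs that point away from each other can be counted for both genes. In H2AC8, TATAAA and the octamer began 206 and 192 bases before its start. They lie beside the AGGCCT that is also at position -37 of H2BC8. The shares of H2A and H2B are thus not of separate places, and distinct places were counted only for AGGCCT. The promoters of H4C14 and H4C15 were identical over all 300 bases. A promoter of H3C4 was identical to that of H2AC7, so this sequence is counted in the shares of both classes. H3C4 and H2AC7 are neighbours on the same strand, and whether the shared sequence is a single place was not checked. Nor was it checked whether it is the H3 promoter that held the octamer. A match describes these letters in this window and does not show a site of any factor.

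The first and longest interval of cluster 1, 275 kb, held 15 peaks, or 5.45 per 100 kb (exact Poisson 95% interval 3.05 to 9.0). Intervals of counts cover counting error only and treat peaks as independent. The strongest and widest member of all lay here, at chromosome 6 26087773 to 26088707, with a width of 935 bp and a score of 258. The score is the authors' own value for a peak, of no stated unit, and in the whole list it started at 50. Thus 3053 peaks of the list (21.1%) scored higher than the strongest member, which is not tied to a histone gene. The next member by score, at 26286508 to 26286970, scored 210 over 463 bp and lay near the far end of the interval. The peak ranked next, at 26172170 to 26172571, scored 202 over 402 bp, and no other peak lay within 1 kb of it.

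Peaks of this interval came singly and in small groups. At 26156579 to 26158125, 3 peaks followed each other with gaps of 93 and 25 bp. The middle one (26156964 to 26157820) was 857 bp wide and scored 179, whereas the outer ones were 292 and 280 bp wide and scored 51.9 and 53.7. The 2 peaks at 26124313 to 26125750, 529 bp apart, were also unequal, with scores of 134 and 51.5. The peak at 26055992 to 26056789 stood alone, with a width of 798 bp and a score of 139. From 26195774 to 26205838, 4 peaks with scores of 104, 123, 95.7 and 98.6 were separated by gaps of 785, 1556 and 5923 bp. After them came 79.4 kb without a peak, the longest gap inside any of the 5 intervals. Of the 220 gaps in the rest of the surrounding stretch, 33 (15.0%) were as long or longer.

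The second interval of cluster 1, 30 kb, held 1 peak, at 27100786 to 27101134, with a width of 349 bp. Its score of 54.9 was close to the lowest value of the list, and the nearest peak on either side lay 28.8 kb away or farther. The third interval, 100 kb, held 6 peaks, or 6.0 per 100 kb (2.20 to 13.1). Of these, 4 formed 2 close pairs. The first pair had a gap of 113 bp and held the strongest peak of the interval, 27805620 to 27806164, with a score of 195, beside a peak of 113. The second pair had a gap of 40 bp between 27860560 and 27861800, and its peaks were nearly equal, with scores of 141 and 145 and widths of 510 and 691 bp. The last of these was also the widest peak of the interval. The other two peaks scored 87.4 and 58.7, and the longest gap, 53.6 kb, lay between the pairs.

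Cluster 2 on chromosome 1 held 4 peaks in 85 kb, 4.71 per 100 kb (1.28 to 12.1), and all 4 lay within 2.73 kb at its far end. They ran from 149856884 to 149857515 (632 bp, the widest, score 86.6), 149857902 to 149858346 (445 bp, score 85.4), 149858349 to 149858771 (423 bp, score 190) and 149859111 to 149859614 (504 bp, score 159). The middle peaks were only 2 bp apart, the closest pair of all members. The first 76.9 kb of the interval held no peak, and the nearest peak before these 4 lay 165 kb away. H4C14 and H4C15, whose promoters have identical sequence as given above, belong to the run of genes on chromosome 1 that starts at H2BC18. Whether reads from copies of equal sequence could be placed in the empty stretch was not tested. Cluster 3 held 1 peak in 50 kb, at 228645035 to 228645653, 619 bp wide with a score of 113.

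**Figure D1:**
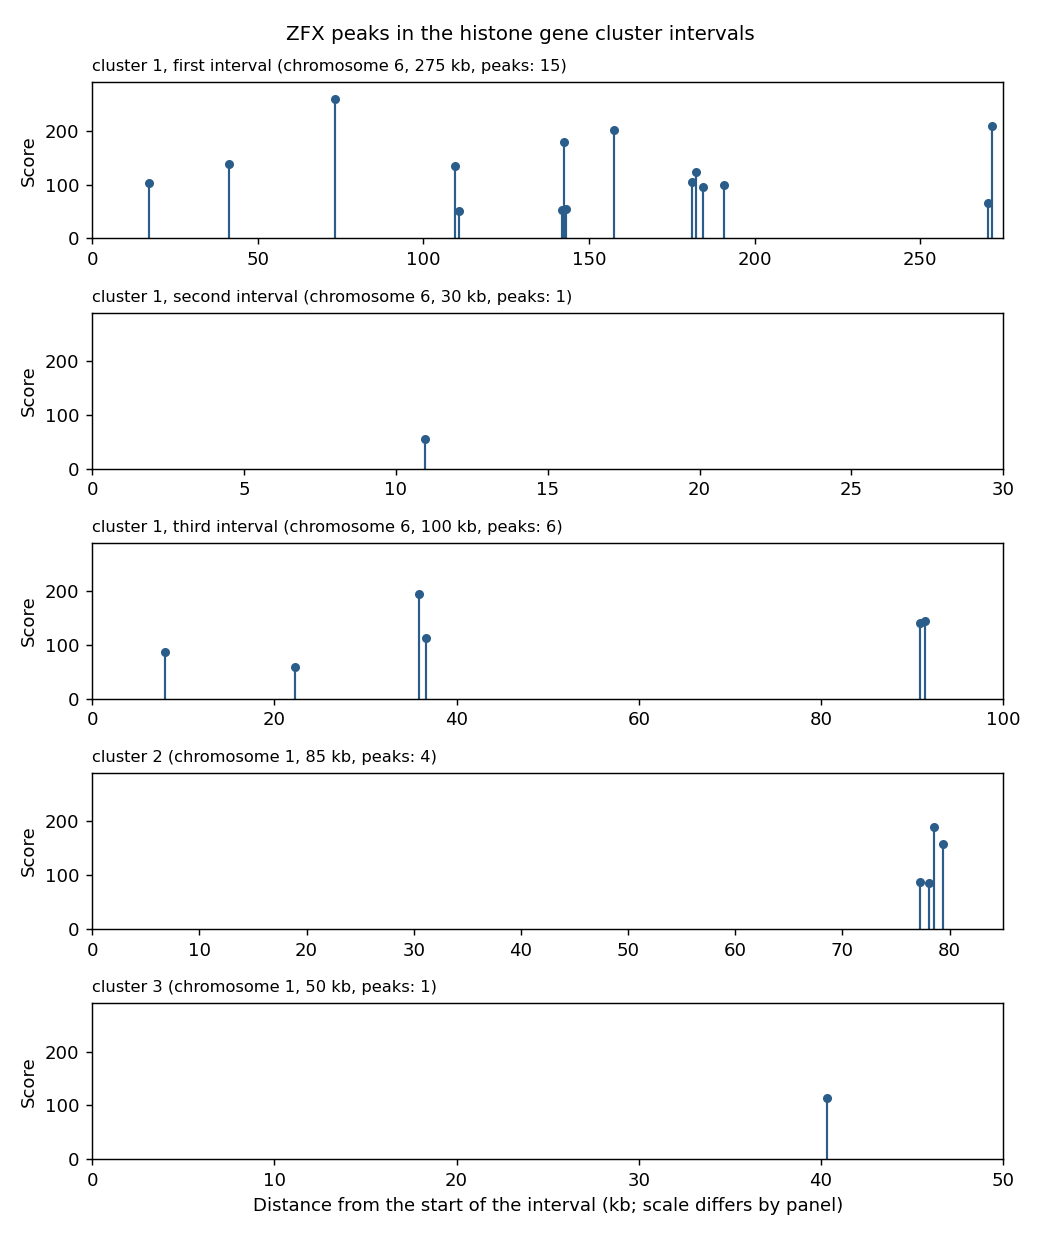
Peaks in each of the 5 intervals, plotted by their distance in kb from the start of the interval (horizontal axis, scale differs by panel) and by score (vertical axis). Each point with its line is 1 peak. The peaks of cluster 2 all lie at its far end, and the first interval of cluster 1 has a stretch of 79.4 kb without a peak.

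Peaks were denser in the histone intervals than in the chromosome around cluster 1 as a whole. Together the intervals covered 540 kb with 27 peaks, or 5.0 per 100 kb (exact Poisson 95% interval 3.30 to 7.28). The rest of chromosome 6 between 25 and 35 Mb held 224 peaks in 9595 kb, or 2.33 per 100 kb (2.04 to 2.66). The ratio was 2.14 (exact conditional 95% interval 1.38 to 3.20), and with the 3 chromosome 6 intervals alone, 22 peaks, it was 2.33 (1.43 to 3.61). Without the first interval of cluster 1 the ratio was 1.94 and its interval, 0.987 to 3.46, included 1. These intervals describe counting within 1 library and are not a test between conditions.

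The histone intervals of chromosome 6 lie in a stretch, 26 to 29 Mb, that was set off because it was already known to be rich in peaks of this list. Its values are therefore a description and decide nothing about the intervals. There, the part outside the intervals held 107 peaks, or 4.12 per 100 kb (3.38 to 4.98), and the 3 chromosome 6 intervals held 5.43 per 100 kb, a ratio of 1.32 (0.793 to 2.10). The rest of 25 to 35 Mb without these 3 Mb had 1.67 per 100 kb. In windows of 100 kb, the richest between 25 and 35 Mb lay at 26.5 to 26.6 Mb with 13 peaks and held no part of an interval. Of the 4 windows with 9 peaks or more, 1 held part of an interval, at 26.1 to 26.2 Mb with 9 peaks. Over the whole list 52 of 29387 such windows (0.177%) had 9 or more.

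Against the 1 Mb on either side, all 5 intervals together were denser, with 5.0 against 2.03 peaks per 100 kb (151 peaks) and a ratio of 2.47 (1.57 to 3.73). This ratio does not weigh the chromosomes alike. Chromosome 1 made up 135 of the 540 kb of intervals. Around cluster 2 and cluster 3, 2000 kb each entered the 7450 kb of sides. Those sides were sparser, with 1.40 and 1.10 peaks per 100 kb, which raises the 2.47. Singly, each interval gave few peaks to judge by. Within 1 Mb on either side, outside other intervals, there were 1.93 peaks per 100 kb around the first interval of cluster 1 (1.36 to 2.65) and 3.76 around the third (2.95 to 4.72), against 5.45 and 6.0 inside. Cluster 2 had 4.71 inside and 1.40 around it (0.930 to 2.02). The second interval of cluster 1 had 3.33 inside and 3.94 around it, and cluster 3 had 2.0 inside and 1.10 around it. For both of these the inside value rests on 1 peak. The interval of the count inside lay wholly above that around it for the first interval of cluster 1 and overlapped it for the other four. The sides of that first interval were unlike. Between 25 and 26 Mb, only the windows starting at 25.2 and 25.9 Mb held a peak, 1 each. Those starting at 26.3 and 26.5 Mb held 9 and 13. The sides were not compared singly. Peaks covered 2.55% of the histone intervals and 1.17% of the rest of 25 to 35 Mb.

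**Figure D2:**
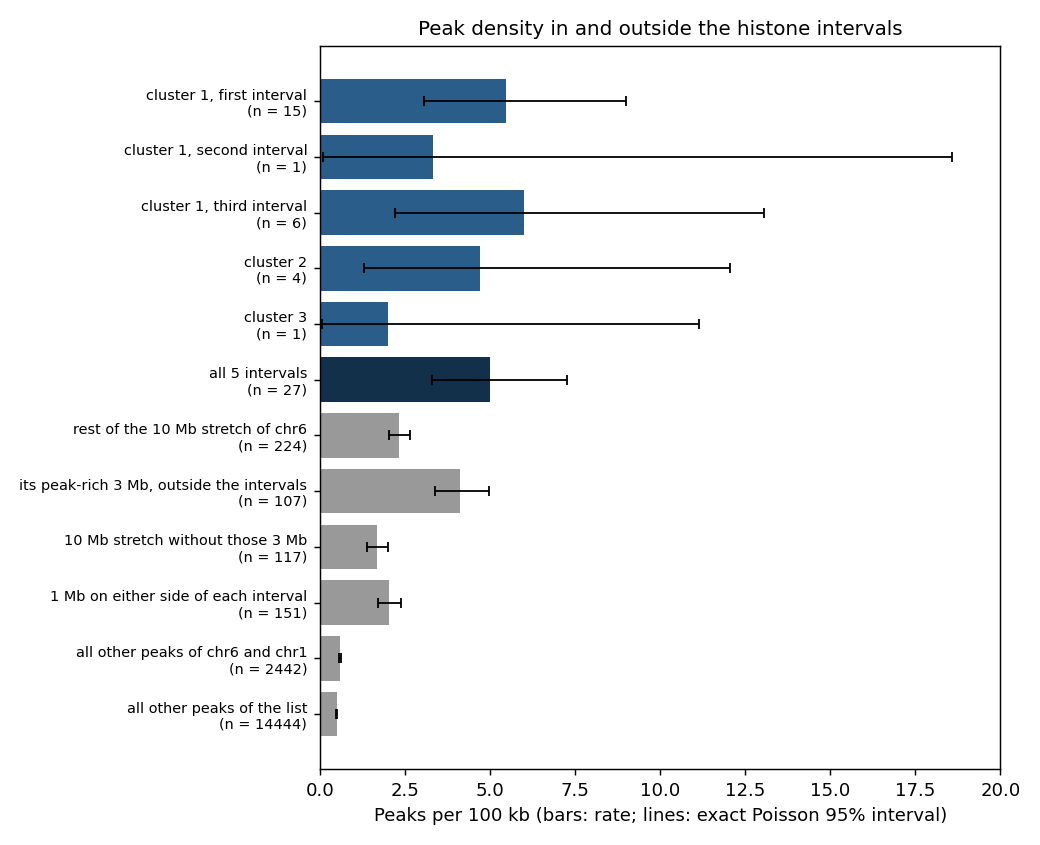
Peaks per 100 kb (horizontal axis) in each histone interval and in all 5 together (blue) and in the comparison stretches (grey), with n as the number of peaks and lines as exact Poisson 95% intervals. The 10 Mb stretch runs from 25 to 35 Mb and its peak-rich 3 Mb from 26 to 29 Mb. The 5.0 of the histone intervals lies above the 2.33 of the rest of the stretch, while its interval overlaps that of the peak-rich 3 Mb.

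Members tended to lie in close pairs and small groups. Of the 27 peaks, 17 (63.0%, exact Clopper-Pearson 95% interval 42.4% to 80.6%) had another peak within 1 kb. In the rest of 25 to 35 Mb this held for 70 of 224 (31.2%, 25.2% to 37.8%), and in the whole list for 32.1%. The rest was itself uneven. Without 26 to 29 Mb the share was 47 of 117 (40.2%, 31.2% to 49.6%), and this interval overlaps that of the members. Between 26 and 29 Mb outside the intervals it was 23 of 107 (21.5%, 14.1% to 30.5%). A close pair enters such a share as 2 peaks, which makes the intervals too narrow. Counted by place, the 27 peaks formed 17 regions when peaks at most 1 kb apart were joined, and 7 of these (41.2%, 18.4% to 67.1%) held 2 or more peaks. In the rest 33 of 187 joined regions did (17.6%, 12.5% to 23.9%), and these intervals overlap. The region with the most peaks was that of cluster 2, with 4. The share with a neighbour also depended on the distance chosen. Within 500 bp it was 40.7% against 28.1%, and within 5 kb 66.7% against 54.9%.

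Many gaps between neighbouring members were short. Of 22 gaps inside the intervals, 10 were at most 1 kb, 10 were over 10 kb and 2 lay between. Of the short ones, 5 were at most 120 bp (2, 25, 40, 93 and 113 bp), 2 were 339 and 386 bp, and 3 were 529, 785 and 855 bp. In the rest of 25 to 35 Mb, 37 of 220 gaps (16.8%) were at most 1 kb, against 45.5% of the gaps between members (24.4% to 67.8%). Gaps of at most 120 bp made up 6.82% in the rest and 22.7% among members (7.82% to 45.4%). Gaps over 10 kb made up 58.2% in the rest, within the interval of the 45.5% among members (24.4% to 67.8%). The median gap was 3740 bp among members (95% order-statistic interval 339 to 23683 bp) and 15375 bp in the rest (11140 to 20793 bp), and these intervals overlap. The median of members falls in the sparse middle of its values and moved with single intervals, to 13203 bp without cluster 2, 1556 bp without the third interval of cluster 1 and 363 bp without the first. Gaps that cross an interval border were left out, which removes long gaps from the short intervals more than from the rest. The members' gaps thus lean short by construction, in the shares as in the median. From the outermost members to the next peak outside, distances ran from 8.27 to 165 kb. With borders moved out by 10 kb, the medians were 9046 and 15686 bp, a ratio of 0.577 (0.0337 to 1.51). With close peaks joined, regions were spaced by a median of 23442 bp in the histone intervals and 22664 bp in the rest. Joined regions also differed less in density, 3.15 per 100 kb against 1.95, with a ratio of 1.62 (0.921 to 2.66).

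**Figure D3:**
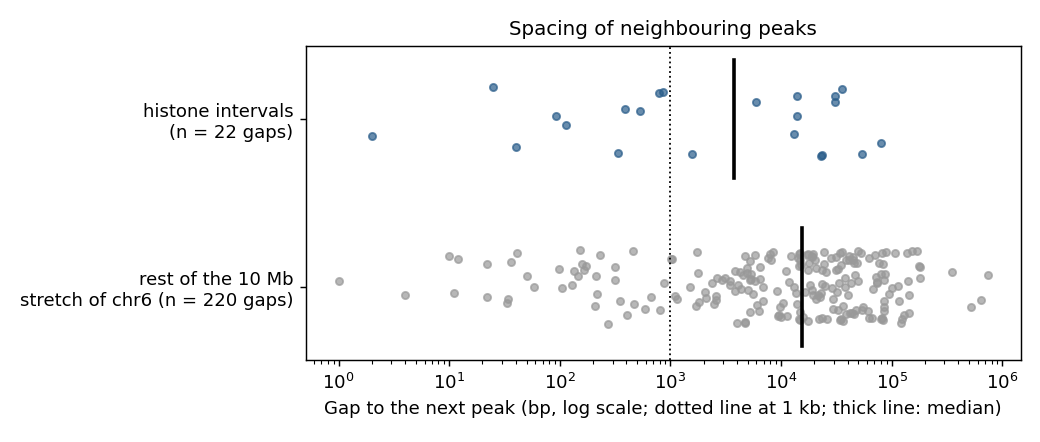
Gap in bp from each peak to the next (horizontal axis, log scale) for the 22 gaps inside the histone intervals (blue) and 220 gaps in the rest of the 10 Mb stretch (grey). Points are single gaps, spread vertically for legibility, thick lines are medians (3740 and 15375 bp), and the dotted line marks 1 kb, below which 10 of 22 and 37 of 220 gaps lie.

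In score and width the members were middling peaks of the list. Scores ran from 51.5 to 258 with a median of 113 (95% order-statistic interval 86.6 to 145). In the rest of 25 to 35 Mb the median was 103 (93.7 to 120) and the highest score 1958. Of the 27 members, 14 (51.9%) scored above the median of the list, 109, as did 107 of 224 in the rest (47.8%) and 49.9% of all peaks, a share that the median itself sets. At the high end, 1 of 27 (3.70%, 0.0937% to 19.0%) was above the 75th percentile of the list, 223, against 36 of 224 (16.1%, 11.5% to 21.5%) in the rest. These intervals overlap, and the share of the whole list is set by the percentile itself. In the rest, 28 peaks (12.5%) scored above the strongest member. At the low end, 5 members (18.5%) scored under 60, a share near the 17.0% of the rest (38 of 224). Of the 5, 3 belong to the groups of close peaks in the first interval of cluster 1.

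Widths ran from 256 to 935 bp with a median of 488 bp (397 to 619), against 428 bp (400 to 461) in the rest and 481 bp in the whole list. The median of the rest lay within the interval of the members' median. Between 26 and 29 Mb outside the intervals the median width was 391 bp (374 to 420), and within 1 Mb on either side of the intervals it was 396 bp (375 to 431). Both values lie just below the interval of the members' median, while their own intervals overlap it. The members on chromosome 6 alone had a median of 475.5 bp. Its ratio to the 391 bp was 1.22 (0.893 to 1.61), which includes 1. Wider members scored higher, with a Spearman correlation of width and score of 0.577 across the 27 peaks and 0.761 across the 224 peaks of the rest. These are descriptions across peaks of 1 library, which are not independent. Members with a neighbour within 1 kb had a median score of 123 and a median width of 488 bp, and the 10 members without one had 100.5 and 487 bp.

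**Figure D4:**
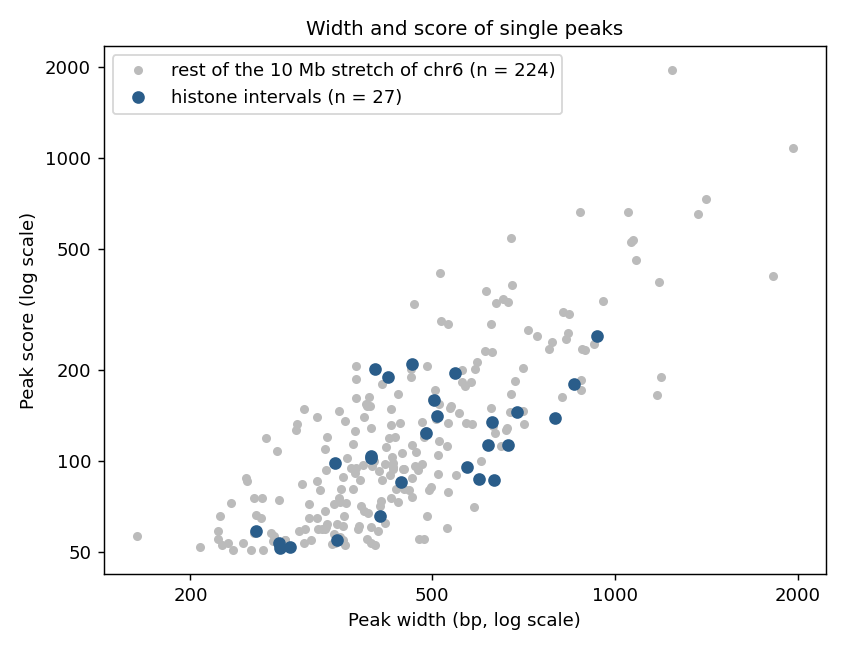
Score (vertical axis, log scale) against width in bp (horizontal axis, log scale) of the 27 peaks in the histone intervals (blue) and the 224 peaks in the rest of the 10 Mb stretch (grey). The members lie inside the cloud of the others, with widths up to 935 bp and scores up to 258, while the others reach 1958.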

How the data were processed

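The antibody in the labels set the groups, 1 ZFX precipitation and 1 input from DAOY cells, both sequenced (ChIP-seq). Bowtie2 2.0.0 and hg19 appear, with no role, per the submitters' processing notes. The authors deposited 1 peak list without a header, with start, end and a score of no stated unit per peak. Its peak names carry MACS, whose version, threshold and control were not found in the labels or the file. Starts were taken as counted from 0 and are printed counted from 1. No 2 peaks of the list overlap. No read count comes with the list, so the precision of a single peak is unknown.

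Rates have exact Poisson intervals, ratios of rates exact conditional intervals, shares Clopper-Pearson intervals and medians order-statistic intervals, all at 95%. Intervals of ratios of shares or medians are the members' limits divided by the comparison value, whose own error they leave out. None is a test between samples. Gaps run from the end of a peak to the next start and stay inside an interval. The ratio of rates was tested on simulated lists of independently placed peaks, and the order-statistic interval on a known series of values. Real peaks lie in groups, which the simulation did not include. The other calculations were not tested in this way. The members and lists were chosen with earlier results of these data known. Peaks named singly were the strongest and widest of each interval, the 10 strongest of all, the closest pair and the longest gaps, and all peaks of intervals with 5 or fewer. Other peaks of close groups were named after their values were seen. Alternatives changed membership, borders, score, joining, distances and the comparison stretch. Calculations ran in Python 3.11.15 with scipy 1.17.1, numpy 2.4.6 and pandas 2.3.3, and figures in matplotlib 3.10.9.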

Additional observations from a re-analysis of the deposited data

How the results depend on the processing

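Ratios of the histone intervals to the comparison stretch were recomputed under 82 combinations of result and alternative, 37 planned and 45 chosen after seeing the data. Intervals of ratios of shares, widths, scores and gaps leave out the error of the comparison stretch. Of the 82, 74 stayed within the interval of the main ratio and 8 did not. Staying says little where that interval is wide. For spacing it ran from 0.022 to 1.54, so all 17 alternatives stayed, with ratios from 0.0236 to 1.14. Membership by midpoint gave the same peaks and values, and the alternatives share most of their peaks. For these reasons the 74 do not measure stability. For peaks per 100 kb, 2.14, the ratios that did not stay were those against all other peaks of chromosomes 1 and 6 (8.58), the whole list (10.2) and 26 to 29 Mb outside the intervals (1.21, 0.764 to 1.86, or 1.32 for the chromosome 6 intervals alone). For the share with a neighbour, 2.01, they were 2.93 and 2.75 against that same stretch and 1.21 (0.838 to 1.52) at 5 kb, and for width with close peaks joined the ratio was 1.79. The comparison stretch, the distance and the joining are the alternatives' own construction. The ratio of rates also came to include 1 with close peaks joined (1.62, 0.921 to 2.66) and without the first interval of cluster 1 (1.94, 0.987 to 3.46). The ratio of shares did so within 500 bp (1.45, 0.796 to 2.18) and 5 kb, and among peaks above the median score (2.41, 0.995 to 4.01). Conversely, ratios of median gaps came to exclude 1 against chromosomes 1 and 6 (0.0772, 0.007 to 0.489) and the whole list (0.0752, 0.00682 to 0.477). The ratio of median widths did so against 26 to 29 Mb (1.25, 1.02 to 1.58) and, narrowly, the 1 Mb on either side (1.23, 1.003 to 1.56). With the chromosome 6 intervals alone against 26 to 29 Mb, the ratio of median widths included 1 (1.22, 0.893 to 1.61). No paired analysis was possible because 1 library has peaks. The list carries no depth, so peaks too weak to be called are not counted.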
